A study of Mus musculus with 8 samples.

Results

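The genes described here are the Wnt ligands, their receptors and the inhibitors that act on them, 57 of the 23478 genes in the count table. They were chosen by name alone: every Wnt, Fzd, Sfrp, Dkk and Rspo gene of the table, together with Lrp5, Lrp6, Lgr4, Lgr5, Lgr6, Axin2, Lef1, Tcf7, Sost, Wif1, Frzb, Znrf3, Rnf43, Nkd1, Nkd2 and Notum. By role they fall into 19 Wnt ligands, 4 R-spondins, 10 Frizzled receptors, 2 Lrp co-receptors, 3 Lgr receptors, 11 secreted antagonists, 6 feedback inhibitors and 2 TCF/LEF factors.

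Wnt ligands are secreted lipid-modified proteins that bind a Frizzled receptor together with Lrp5 or Lrp6, which stops the destruction of beta-catenin and lets it act with TCF/LEF factors on target genes. Some ligands, Wnt5a among them, act mainly through Frizzled receptors without beta-catenin, on cell polarity and movement. R-spondins bind Lgr receptors and hold back Znrf3 and Rnf43, the ubiquitin ligases that remove Frizzled from the surface, whereas Sfrp, Wif1, Dkk and Sost proteins act outside the cell against the ligands or the co-receptors. In the mammary gland Wnt ligands and R-spondins support stem and progenitor cells, and in bone marrow the pathway is known for its part in the formation of osteoblasts.

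RNA sequencing counts were available for 8 mouse libraries in 4 groups of 2. By their labels the first 2 groups are disseminated cancer cells (DCC), taken from the marrow of mice whose breast cancer had spread spontaneously. They were then cultured either with interferon-gamma (DCC IFN-gamma) or without it (DCC control). TUBO is a cultured mouse mammary carcinoma line, labelled as a breast cancer cell line, and the early lesion group holds primary cancer cells from an early mammary tumour whose sample names carry neuT, an activated rat Erbb2 oncogene. All 4 groups carry the genotype label WT, and the sources used here do not give the promoter of the neuT transgene, the age of the mice, or how much interferon-gamma was added and for how long. The labels call the replicates biological, but nothing says that they came from separate animals or cultures, so the p-values measure the spread between these samples, which may be technical.

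The libraries labelled DCC held almost no epithelial transcripts. A list of 10 epithelial genes, Epcam and Cdh1 among them, summed to between 0.0367 and 0.125 CPM (counts scaled to a common library size) in DCC IFN-gamma and 3.64 to 5.42 CPM in DCC control, against 5941 to 6382 CPM in TUBO and 3061 to 3245 CPM in early lesion, and 7 of the 10 were at 0 in both DCC IFN-gamma libraries. In contrast, 12 fibroblast and stromal genes summed to 761 to 1220.4 CPM in DCC IFN-gamma and 7567 to 8744 CPM in DCC control, against at most 33.9 CPM in the other groups. Most of the DCC control sum was Col1a1 (3900 and 4274 CPM) and Col3a1 (2969 and 3629 CPM). Of 11 tested, 2 were called higher in DCC IFN-gamma than in DCC control (Lepr and Pdgfra) and 6 lower (Col1a1, Col1a2, Col3a1, Cxcl12, Lum and Postn). The sum of 12 macrophage genes was 1056 to 1472 CPM in DCC IFN-gamma and 116 CPM in both DCC control libraries, against at most 9.10 CPM elsewhere. Of the 12, 9 were called higher in DCC IFN-gamma than in DCC control. Of 12 osteoblast and cartilage genes, 4 were called lower in DCC IFN-gamma than in DCC control (Alpl, Col2a1, Ibsp and Runx2) and 8 higher in DCC control than in TUBO and early lesion. Their sum was 10292 to 25694 CPM in DCC IFN-gamma, 16047 to 21763 CPM in DCC control, 3632 to 4090.0 CPM in TUBO and 3709 to 4583 CPM in early lesion. It was mostly Spp1, the gene of osteopontin, which macrophages and epithelial tumours also express. The other 11 summed to 371 to 808 CPM in DCC IFN-gamma and 2570 to 2929 CPM in DCC control, against 283 to 292 CPM in TUBO and 169 to 184 CPM in early lesion. Outside DCC control that sum was mostly Sox9. Sox9 had 231 and 548 CPM in DCC IFN-gamma and 164 and 184 CPM in DCC control. In TUBO it had 154 and 149 CPM, and in early lesion 151 and 133 CPM. The part of these cell types in the Wnt results was not tested, and in bulk RNA fewer cells of a type and less RNA per cell cannot be told apart. Replicate 1 of DCC control and replicate 2 of early lesion stood apart from the rest, with 63.7% and 57.2% of their counted reads on no gene, against 35.2% to 45.1% in the other 6. In early lesion replicate 1, 27 of the 57 Wnt genes were at 0, and all 27 had a count in replicate 2, between 1 and 32 with a median of 8, where 63.7% of 1450 olfactory and vomeronasal receptor genes also had a count. The share of these receptor genes with a count was 47.7% in DCC control replicate 1 and 11.9% in DCC control replicate 2, against at most 2.0% in the other 5 libraries. Its part in the low member counts of these libraries, and in calls that rest on such counts, was not tested. Reads on genes ranged from 15432210 to 30168475 per library.

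Of the 57 genes, 48 had enough counts to be tested, and the 9 that did not (Dkk4, Rspo4, Sfrp5, Sost, Wnt3a, Wnt6, Wnt7a, Wnt8a and Wnt8b) stayed at or below 1.58 CPM in every library. Members at 0 in both libraries of a group numbered 13 in DCC IFN-gamma, 4 in DCC control, 21 in TUBO and 0 in early lesion. Early lesion replicate 1 alone had 27 members at 0 and replicate 2 had 0. The part of the source of the olfactory receptor counts in these numbers was not tested. A mean of 5 CPM in at least 1 group was reached by 30 members. The heat map of all members shows Wnt5a, Rspo3, Wif1, Sfrp4 and Lgr6 at higher levels in the DCC libraries, and Sfrp1, Lrp5, Lrp6 and Nkd2 at higher levels in the TUBO and early lesion libraries.

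**Figure D1:**
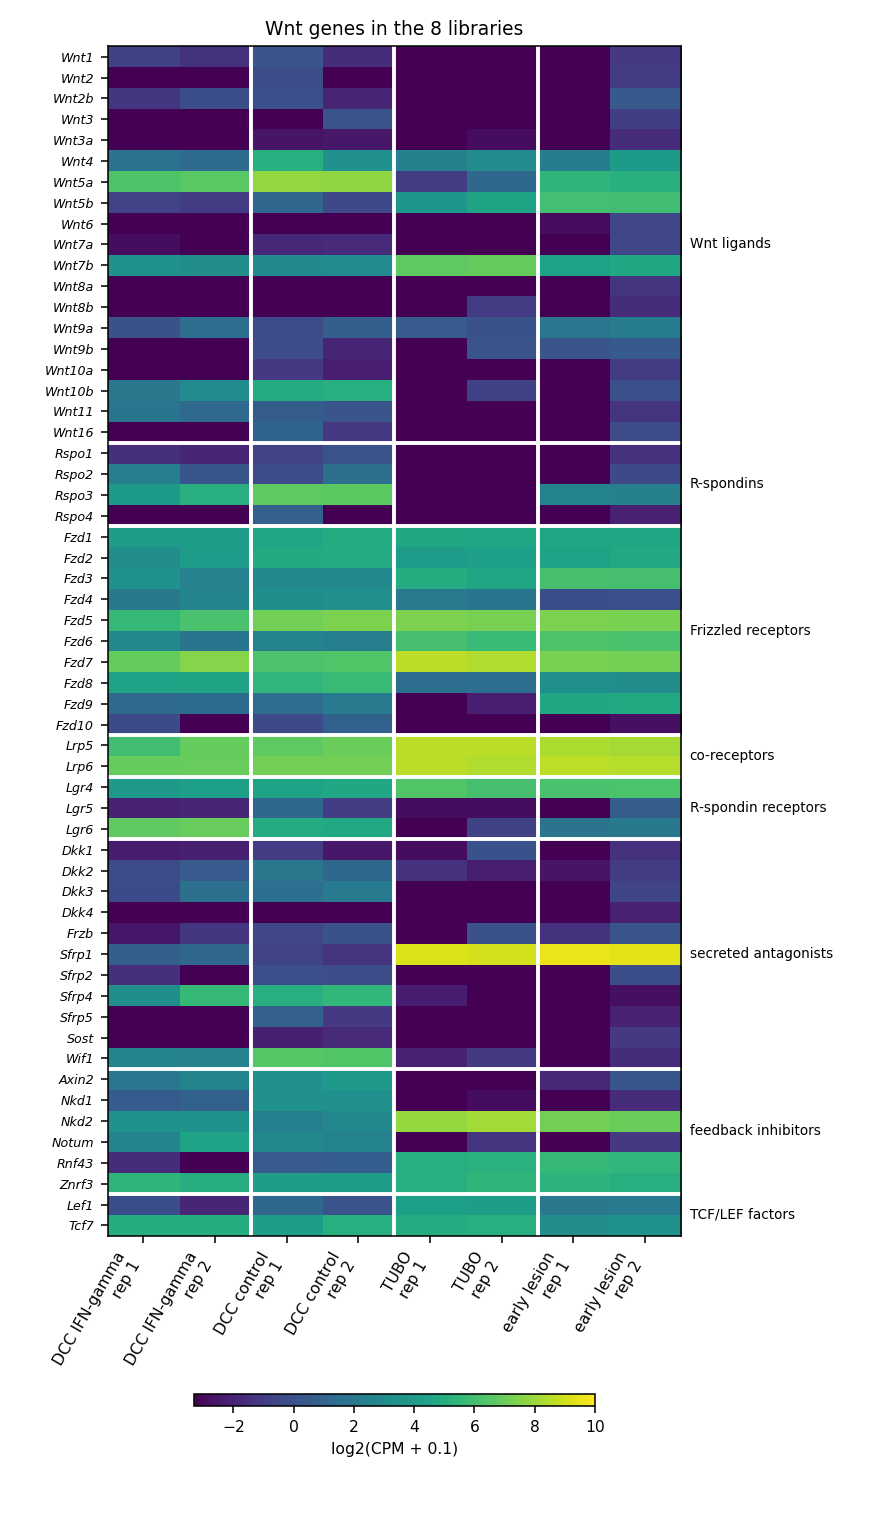
Heat map of the 57 Wnt genes, grouped by role down the page, in each of the 8 libraries from left to right as DCC IFN-gamma, DCC control, TUBO and early lesion. Colour gives log2(CPM + 0.1), and Sfrp1 is the brightest row in TUBO and early lesion (540.2 to 789 CPM) and near the dark end in both DCC groups (at most 2.04 CPM).

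The first comparison was between interferon-gamma-treated and untreated DCC cultures. In edgeR's quasi-likelihood test over all genes, 5 of the 48 tested members were higher in DCC IFN-gamma than in DCC control (Fzd7, Lgr6, Nkd2, Sfrp1 and Znrf3) and 8 were lower (Fzd1, Fzd2, Fzd5, Fzd8, Rnf43, Rspo3, Wif1 and Wnt4), at a Benjamini-Hochberg adjusted p under 0.05. Of all 17069 genes tested, 12.6% were called higher and 8.83% lower. The median log2 fold change was -1.10 over the tested members (-1.05 with members at 0 in a group set at their bound) and -0.20 over all genes tested. With DCC control replicate 1 and early lesion replicate 2 left out, the medians were -0.94 over members (-0.80 with bounds) and -0.05 over all genes. Without both libraries that stood apart, 1 member was called higher (Sfrp1) and 4 lower (Fzd5, Fzd8, Rnf43 and Wif1) of 45 tested, with 6.44% of all genes called higher and 4.03% lower.

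**Figure D2:**
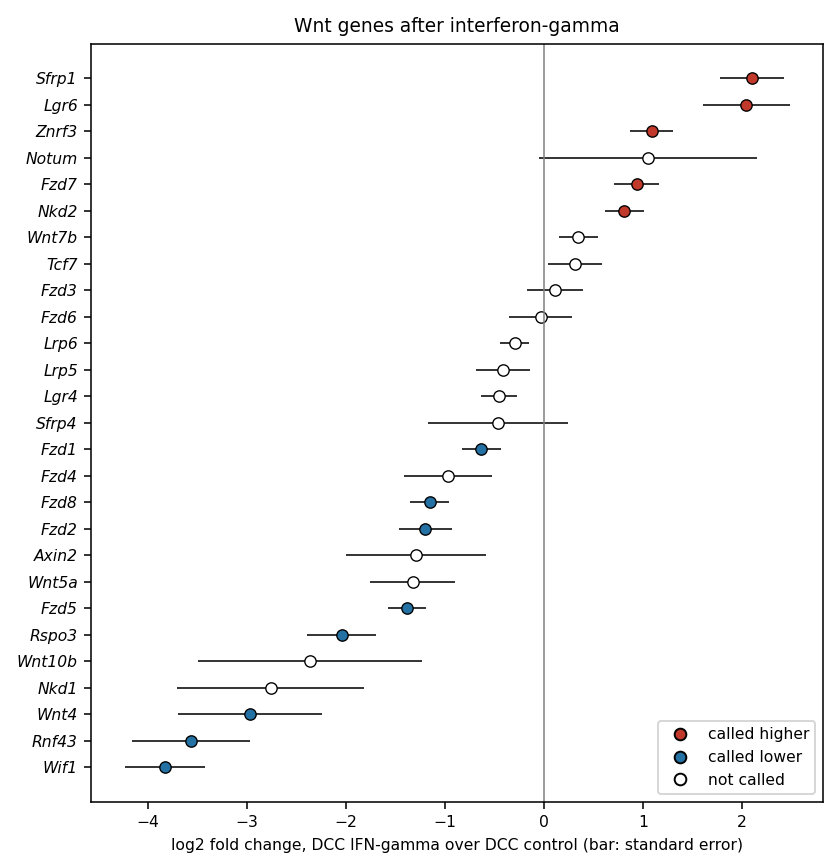
Log2 fold change in DCC IFN-gamma over DCC control, with bars of 1 standard error, of the 27 Wnt genes that averaged at least 5 CPM in one of these groups or were called, ordered by size. Red (higher) and blue (lower) points passed an adjusted p under 0.05, and among them Wif1 has the largest decrease (-3.82) and Sfrp1 the largest increase (2.10).

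By number of calls, DCC control differed more widely from TUBO and early lesion than from DCC IFN-gamma. Of the 48 members, 16 were higher and 13 lower in DCC control than in TUBO, where 22.1% of all genes were called higher and 19.9% lower. Against early lesion, 12 members were higher and 13 lower in DCC control, with 19.1% of all genes called higher and 18.7% lower. Between TUBO and early lesion, 6 were higher and 8 lower in TUBO, with 11.4% of all genes higher and 12.7% lower. The median log2 fold change over tested members was 3.98 for DCC control over TUBO (1.76 with members at 0 in TUBO set at their bound), against 0.37 over all genes. It was 0.93 for DCC control over early lesion, against 0.23 over all genes, and -0.94 for TUBO over early lesion (-0.52 with bounds), against -0.27. Without the 2 libraries that stood apart, 14 members were higher and 13 lower in DCC control than in TUBO (18.2% and 14.5% of all genes), 12 and 10 in DCC control than in early lesion (13.0% and 13.0%), and 3 and 6 in TUBO than in early lesion (5.02% and 7.29%). The medians over members were then 1.41 for DCC control over TUBO (0.99 with bounds), 2.27 for DCC control over early lesion (1.59 with bounds) and 0.00 for TUBO over early lesion with and without bounds. Over all genes they were 0.16, 0.18 and 0.00. Calls lost in that fit were those of Fzd7, Fzd9, Lgr6, Lrp5 and Wnt5a between DCC control and early lesion (adjusted p between 0.0585 and 0.103). In the same fit the calls of Fzd2 and Fzd4 between DCC control and TUBO were lost (0.161 and 0.0946), as were those of Axin2, Fzd4, Fzd7, Lef1 and Lgr6 between TUBO and early lesion (0.0555 to 0.0999). Both comparisons of DCC control share its 2 libraries with the interferon-gamma comparison, so the results below are given side by side.

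The promoters of 3 genes are shown because Wif1 and Fzd5 were lower in DCC IFN-gamma under every alternative tried and Fzd7 was the Frizzled gene called in the other direction. Fzd8 was also lower under every alternative, but had no promoter window in the RefSeq table. Each line gives the 250 bases before the start site in RefSeq's table on GRCm38.p6, for Wif1 at chr10:121033754-121034003 on the plus strand, for Fzd5 at chr1:64737751-64738000 on the minus strand and for Fzd7 at chr1:59481897-59482146 on the plus strand. Capitals mark a match to a searched motif.
Wif1: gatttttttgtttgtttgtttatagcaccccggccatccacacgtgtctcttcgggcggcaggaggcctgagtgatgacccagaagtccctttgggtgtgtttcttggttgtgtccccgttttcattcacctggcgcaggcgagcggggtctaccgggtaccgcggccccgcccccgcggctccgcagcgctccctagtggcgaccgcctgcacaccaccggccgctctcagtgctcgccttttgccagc
Fzd5: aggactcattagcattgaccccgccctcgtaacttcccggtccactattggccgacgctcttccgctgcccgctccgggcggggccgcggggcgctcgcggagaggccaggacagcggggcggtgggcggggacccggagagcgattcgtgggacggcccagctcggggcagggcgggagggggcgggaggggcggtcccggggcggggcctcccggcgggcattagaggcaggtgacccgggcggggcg
Fzd7: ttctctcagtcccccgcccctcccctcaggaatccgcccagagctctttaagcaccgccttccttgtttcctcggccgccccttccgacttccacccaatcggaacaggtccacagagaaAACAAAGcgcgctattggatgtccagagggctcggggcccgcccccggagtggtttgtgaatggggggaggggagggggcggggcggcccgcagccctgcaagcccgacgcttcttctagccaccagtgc
The motifs searched on both strands were the TCF/LEF letters CTTTGAT and CTTTGTT, the interferon-gamma activated site TTCNNNGAA and the interferon-stimulated response element ISRE, taken as a pair of GAAA parted by any 2 bases. Found matches did not overlap one another, and the single match in the windows shown is AACAAAG, the reverse complement of CTTTGTT, which begins 130 bases before the start site of Fzd7. RefSeq windows of 300 bases, 250 before the start and 50 after, were in the table for 38 of the 57 members (46 windows). CTTTGAT was in 2 of them, CTTTGTT in 3, TTCNNNGAA in 2 and ISRE in 0, against 3.73%, 5.85%, 8.30% and 3.44% of all 32851 windows. The 250 bases before the start were 62.8% G or C for Wif1, 76.4% for Fzd5 and 65.2% for Fzd7, with a median of 65.2% over the member windows and 52.4% over all windows.

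The leading Wnt ligand was Wnt5a in both DCC groups, Wnt7b in TUBO and Wnt5b in early lesion. Compared per length, as CPM divided by exon length in kilobases (RPKM), Wnt5a, a ligand of the beta-catenin-independent branch, made up 63.9% and 64.1% of the summed RPKM of the 19 ligands in DCC IFN-gamma and 57.3% and 63.9% in DCC control. In TUBO, Wnt7b, an epithelial ligand, held 75.8% and 67.9%, and in early lesion Wnt5b, a close paralogue of Wnt5a, held 66.8% and 56.8%. The summed RPKM of all ligands was 16.3 and 19.2 in DCC IFN-gamma, 50.5 and 43.9 in DCC control, 27.6 and 35.2 in TUBO, and 36.6 and 39.6 in early lesion.

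**Figure D3:**
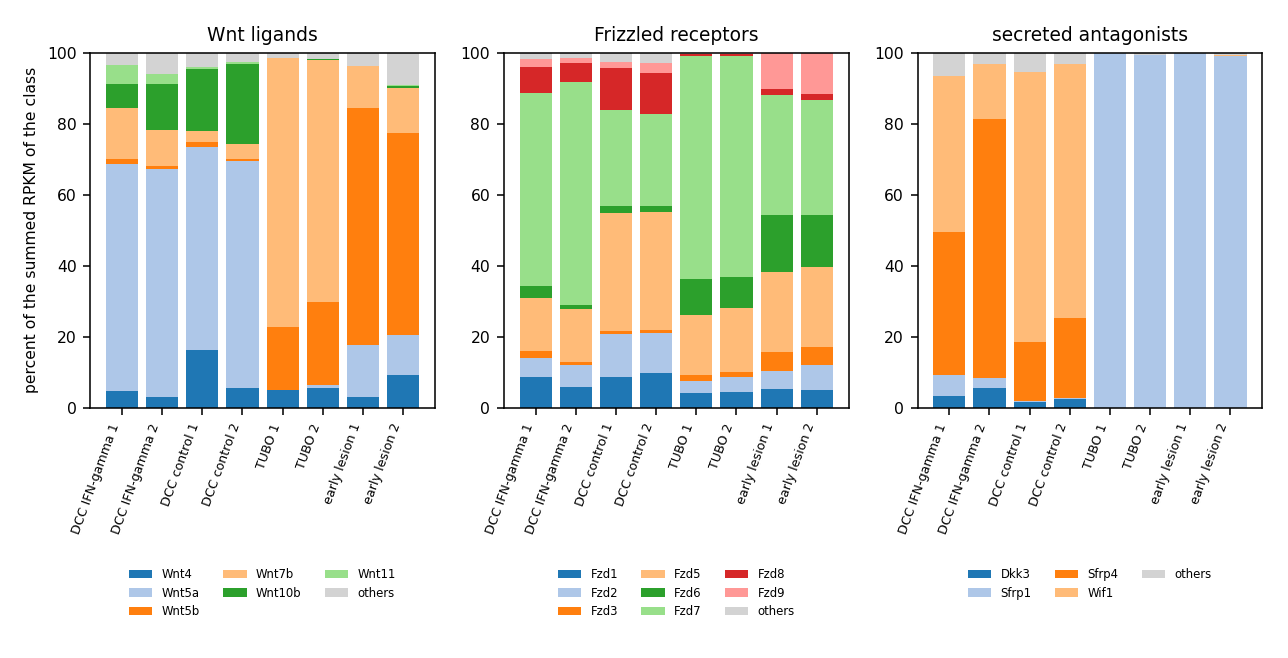
Share of the summed RPKM of each role taken by its members, in percent, for the ligands, Frizzled receptors and secreted antagonists in each of the 8 libraries, from left to right DCC IFN-gamma, DCC control, TUBO and early lesion. Wnt5a takes the largest part of the ligands in the 4 DCC libraries (57.3% to 64.1%), Wnt7b in TUBO and Wnt5b in early lesion, and Sfrp1 takes at least 99.1% of the secreted antagonists in TUBO and early lesion.

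Wnt5a (GRCm38 chr14:28504750-28527448, plus strand) had 81.5 and 96.4 CPM in DCC IFN-gamma, 226 and 219.5 CPM in DCC control, 0.414 and 2.10 CPM in TUBO, and 41.7 and 35.5 CPM in early lesion. No 2 groups overlapped, with DCC control highest and TUBO lowest. It was higher in DCC control than in TUBO by 7.49 ± 0.59 on the log2 scale (SE, adjusted p = 8.83e-05) and than in early lesion by 2.53 ± 0.45 (adjusted p = 0.0043), and lower in TUBO than in early lesion (-4.96 ± 0.55, adjusted p = 0.00114). The difference between DCC IFN-gamma and DCC control, -1.33 ± 0.43, was not called (adjusted p = 0.075), but it was called without TUBO replicate 1 (4.77e-04) or replicate 2 (5.76e-04) and in DESeq2 (0.0143), with adjusted p between 2.58e-09 and 0.33 over all alternatives. The difference from early lesion lost its call without DCC control replicate 2 (2.55, adjusted p = 0.06).

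Wnt5b and Wnt7b had the opposite arrangement. Wnt5b had 0.55 and 0.417 CPM in DCC IFN-gamma, 2.01 and 0.673 CPM in DCC control, 12.9 and 21.9 CPM in TUBO, and 64.8 and 59.7 CPM in early lesion. It was lower in DCC control than in TUBO (-3.77 ± 0.46, adjusted p = 1.94e-04) and early lesion (-5.61 ± 0.48, adjusted p = 2.27e-05), and lower in TUBO than in early lesion (-1.84 ± 0.38, adjusted p = 0.00845). Wnt7b had 11.5 and 9.51 CPM in DCC IFN-gamma, 7.61 and 8.91 CPM in DCC control, 102 and 117 CPM in TUBO, and 21.1 and 24.5 CPM in early lesion. The TUBO libraries stood above all others, 4.81-fold above early lesion (2.27 ± 0.19, adjusted p = 2.89e-05), and DCC control was 13.2-fold below TUBO (-3.73 ± 0.21, adjusted p = 3.24e-07) and 2.75-fold below early lesion (-1.46 ± 0.19, adjusted p = 1.81e-04). Between DCC IFN-gamma and DCC control the log2 differences were -1.38 ± 0.57 for Wnt5b (adjusted p = 0.124) and 0.35 ± 0.19 for Wnt7b (adjusted p = 0.234). Wnt5b was called in that comparison without DCC control replicate 2 (-2.03, adjusted p = 0.00674).

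Among the other ligands, Wnt10b, a ligand that favours osteoblast over adipocyte formation, had 3.78 and 8.55 CPM in DCC IFN-gamma and 29.6 and 33.7 CPM in DCC control, against 0 and 0.496 CPM in TUBO and 0 and 0.847 CPM in early lesion. All DCC libraries lay above the other 4. DCC control was higher than TUBO by 7.02 ± 1.51 (adjusted p = 0.0104) and than early lesion by 6.34 ± 1.44 (adjusted p = 0.0141). The call against TUBO did not hold without DCC IFN-gamma replicate 1 or 2, DCC control replicate 1 or 2, or TUBO replicate 1 (adjusted p = 0.0579, 0.0643, 0.0525, 0.117 and 0.0648), and that against early lesion without either DCC IFN-gamma or either DCC control library (0.0723, 0.0818, 0.0675 and 0.154). Without the TUBO or early lesion library that held its few counts, replicate 2 in each, DCC control was at least 306-fold above TUBO and at least 332-fold above early lesion, on the floor of 3 counts in the remaining library. The interferon-gamma difference of Wnt10b was -2.36 ± 1.13 (adjusted p = 0.199), and it was called when the 2 DCC groups were fitted alone (0.00475).

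Wnt4, a ligand needed for branching of the mammary duct, was the 1 ligand called between DCC IFN-gamma and DCC control. It had 3.23 and 2.46 CPM in DCC IFN-gamma, 34.3 and 10.4 CPM in DCC control, 5.69 and 8.35 CPM in TUBO, and 4.89 and 15.3 CPM in early lesion. Both treated libraries lay below all others, and the DCC control replicates differed widely. The higher values of DCC control and early lesion were in the 2 libraries that stood apart, DCC control replicate 1 and early lesion replicate 2. Whether they share the source of the olfactory receptor counts was not tested. The log2 difference was -2.97 ± 0.73 (adjusted p = 0.026), and -1.87 without both libraries that stood apart. That call did not hold with DCC IFN-gamma replicate 1 left out (adjusted p = 0.24) or 2 (0.264), without TUBO replicate 1 (0.0663) or 2 (0.0601), and without DCC control replicate 1, where the difference was -1.87 (0.0924).

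Wnt11, another ligand of the beta-catenin-independent branch, had 3.56 and 2.25 CPM in DCC IFN-gamma, 1.40 and 1.03 CPM in DCC control, 0 CPM in both TUBO libraries, and 0 and 0.312 CPM in early lesion. It was at least 11.2-fold higher in DCC control than in TUBO, taking the floor of 3 counts in each TUBO library (adjusted p = 0.0243), a call that ended with DCC control replicate 1 left out (adjusted p = 0.0514) or TUBO replicate 1 (0.0706) or 2 (0.0765). The remaining 13 ligands, of which 8 were tested, averaged at most 4.26 CPM in any group, the value of Wnt9a in early lesion, and in edgeR's test over the 4 groups the 8 were not called. In DESeq2 Wnt1 was called higher in DCC control than in TUBO (adjusted p = 0.0457), and with 2 groups fitted alone Wnt9a was called lower in TUBO than in early lesion (0.0219). The Wnt1 call rests on 17 and 6 counts in DCC control. Without early lesion replicate 2, Wnt4 and Wnt11 were called higher in DCC control than in early lesion, Wnt4 by 2.18 (adjusted p = 0.0431) and Wnt11 at least 12.7-fold on the floor (adjusted p = 0.0252). Wnt4 was called higher in DCC control than in TUBO without DCC control replicate 2 (2.29, adjusted p = 0.0169) or either early lesion library (0.0332 and 0.0327).

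Rspo3 was the leading R-spondin of both DCC groups and of early lesion, and had no count in TUBO. R-spondins amplify Wnt signals through Lgr receptors, and Rspo3 (GRCm38 chr10:29452416-29535867, minus strand) held 96.8% of the summed R-spondin RPKM in both DCC control libraries. It held 81.4% and 97.3% in DCC IFN-gamma and 100% and 84.3% in early lesion. It had 15.2 and 33.7 CPM in DCC IFN-gamma, 102 and 99.0 CPM in DCC control, 0 CPM in both TUBO libraries, and 6.07 and 5.40 CPM in early lesion. No 2 groups overlapped. Rspo3 fell in DCC IFN-gamma by 2.04 ± 0.35 on the log2 scale (adjusted p = 0.00624), was 17.5-fold higher in DCC control than in early lesion (4.13 ± 0.39, adjusted p = 1.27e-04), and was at least 924-fold higher in DCC control than in TUBO (adjusted p = 7.87e-06). TUBO was at least 52.6-fold below early lesion (adjusted p = 3.67e-04). The interferon-gamma call was lost when both libraries that stood apart were left out (-2.02, adjusted p = 0.0667).

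Rspo2 had 5.06 and 1.08 CPM in DCC IFN-gamma, 0.73 and 2.97 CPM in DCC control, 0 CPM in both TUBO libraries, and 0 and 0.669 CPM in early lesion. It was at least 17.0-fold higher in DCC control than in TUBO (adjusted p = 0.0285), which did not hold when DCC control replicate 2 was left out (adjusted p = 0.0795) or TUBO replicate 1 (0.101) or 2 (0.111). Without early lesion replicate 2 it was also called higher in DCC control than in early lesion (at least 19.4-fold, adjusted p = 0.0327). Rspo1 averaged at most 0.749 CPM in any group and was not called by edgeR over the 4 groups. It was called higher in DCC control than in TUBO by DESeq2 (adjusted p = 0.0334) and with those groups fitted alone (0.0177), on 9 and 24 counts in DCC control. Rspo4 was not tested.

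Of the 10 Frizzled genes, which encode the receptors that bind Wnt ligands, 4 were lower and 1 was higher in DCC IFN-gamma than in DCC control. Of all genes tested, 8.83% were lower and 12.6% higher there. The summed RPKM of the Frizzled genes was 46.1 and 68.2 in DCC IFN-gamma, 62.9 and 71.4 in DCC control, 138 and 122 in TUBO, and 105 and 103 in early lesion. Fzd7 took 54.5% and 62.6% of that sum in DCC IFN-gamma and 26.9% and 25.9% in DCC control, while Fzd5 took 14.9% and 15.1% in DCC IFN-gamma and 33.2% and 33.4% in DCC control.

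Fzd5 (GRCm38 chr1:64730558-64737751, minus strand; promoter shown above) had 47.5 and 71.3 CPM in DCC IFN-gamma, against 144 and 165 CPM in DCC control, 163 and 152 CPM in TUBO, and 164 and 160.4 CPM in early lesion. Only the treated libraries were low among these 8, and the other 3 groups overlapped one another. Fzd5 fell 2.60-fold in DCC IFN-gamma (-1.38 ± 0.19, adjusted p = 7.43e-04) and was not called in the other 3 comparisons, whose log2 differences lay between -0.07 and -0.03. The interferon-gamma call of Fzd5 held under every alternative tried, with adjusted p at most 0.0107.

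Fzd7 (GRCm38 chr1:59482424-59486955, plus strand; promoter shown above), a receptor also found on stem-like mammary cells, had 114 and 194 CPM in DCC IFN-gamma, 76.8 and 83.8 CPM in DCC control, 393 and 345 CPM in TUBO, and 162 and 151 CPM in early lesion. DCC control was lowest, TUBO highest, and the range of DCC IFN-gamma enclosed that of early lesion. Fzd7 was 1.91-fold higher in DCC IFN-gamma than in DCC control (0.94 ± 0.22, adjusted p = 0.0143), 4.59-fold lower in DCC control than in TUBO (-2.20 ± 0.23, adjusted p = 3.29e-05), 1.95-fold lower in DCC control than in early lesion (-0.96 ± 0.22, adjusted p = 0.00616) and 2.36-fold higher in TUBO than in early lesion (1.24 ± 0.22, adjusted p = 0.00286). Without DCC control replicate 1 the first call was lost (0.88, adjusted p = 0.102), as was that of DCC control against early lesion (-0.90, adjusted p = 0.0511), and without DCC IFN-gamma replicate 2 the first difference was 0.55.

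**Figure D4:**
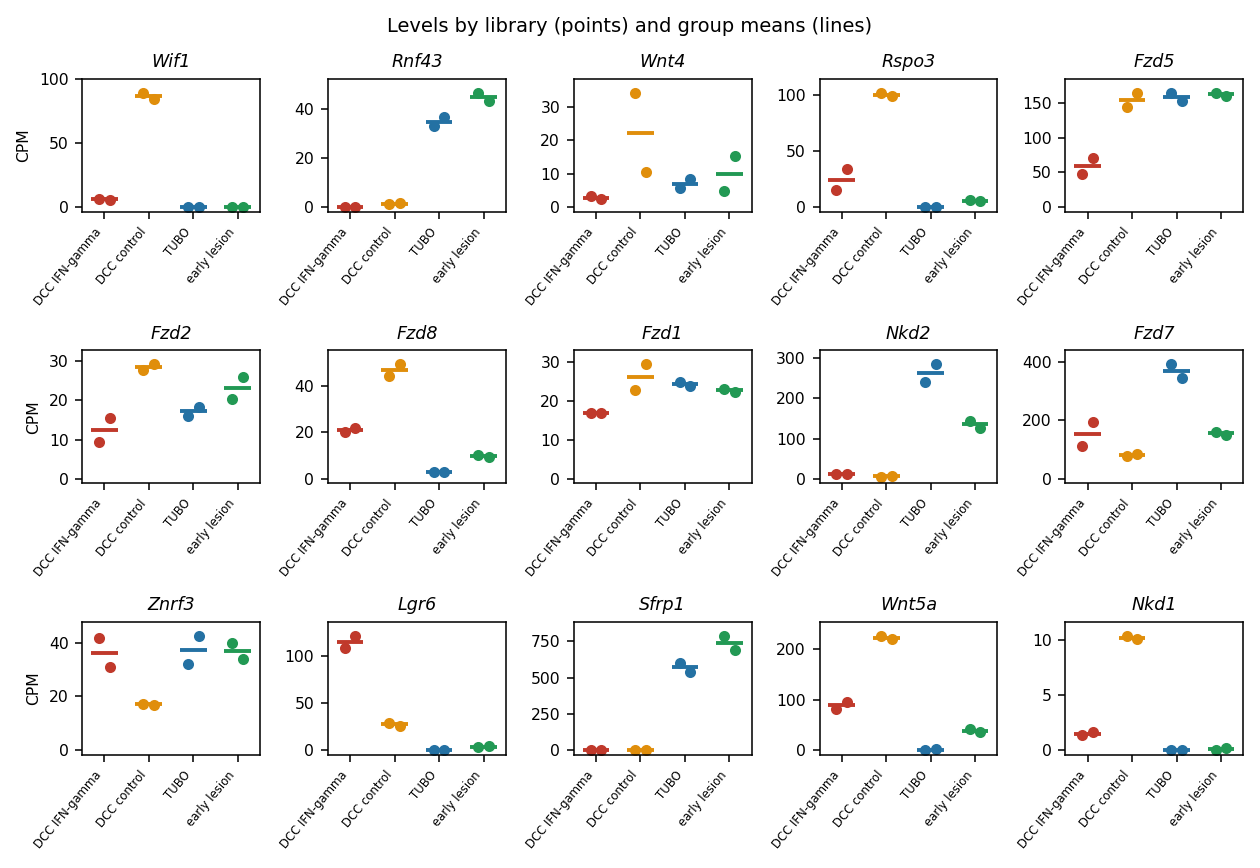
CPM, on a linear axis of its own in each panel, of the 13 Wnt genes called between DCC IFN-gamma and DCC control and of Wnt5a and Nkd1, with 1 point for each library, lines at the group means, and the groups from left to right as DCC IFN-gamma, DCC control, TUBO and early lesion. Wif1 shows the largest ratio between the DCC group means among these genes, with 5.88 and 6.34 CPM in the treated and 84.0 and 89.4 CPM in the untreated libraries. Fzd5 is low in the treated libraries alone.

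Fzd8 fell 2.22-fold in DCC IFN-gamma (-1.15 ± 0.20, adjusted p = 0.00239), a call that also held under every alternative. It had 20.01 and 22.1 CPM in DCC IFN-gamma, 44.1 and 49.4 CPM in DCC control, 2.76 and 2.78 CPM in TUBO, and 10.2 and 9.54 CPM in early lesion. The 4 groups did not overlap. DCC control was higher than TUBO by 4.08 ± 0.23 (adjusted p = 3.24e-07) and than early lesion by 2.24 ± 0.21 (adjusted p = 1.25e-05), and TUBO was lower than early lesion (-1.83 ± 0.21, adjusted p = 2.02e-04).

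Fzd2 had 9.31 and 15.6 CPM in DCC IFN-gamma, 27.8 and 29.3 CPM in DCC control, 16.1 and 18.3 CPM in TUBO, and 20.4 and 26.0 CPM in early lesion, and the treated libraries were the lowest. It fell 2.29-fold in DCC IFN-gamma (-1.20 ± 0.27, adjusted p = 0.0104) and was 1.66-fold higher in DCC control than in TUBO (0.73 ± 0.27, adjusted p = 0.0487). The call against TUBO was lost without either DCC control, TUBO or early lesion library (adjusted p between 0.0643 and 0.141), and the interferon-gamma call without both libraries that stood apart (0.0774). Fzd1 had 16.8 and 16.9 CPM in DCC IFN-gamma, 22.8 and 29.4 CPM in DCC control, 24.8 and 23.7 CPM in TUBO, and 23.1 and 22.3 CPM in early lesion. Its log2 difference of -0.63 ± 0.20 in DCC IFN-gamma (adjusted p = 0.0477) was lost without any 1 of the 8 libraries (adjusted p between 0.0546 and 0.352).

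The other 5 Frizzled genes were not called between DCC IFN-gamma and DCC control. Fzd6, a receptor of the planar polarity branch, had 7.40 and 3.55 CPM in DCC IFN-gamma, 6.15 and 5.15 CPM in DCC control, 67.1 and 51.6 CPM in TUBO, and 80.9 and 72.9 CPM in early lesion. Fzd3 had 11.1 and 6.01 CPM in DCC IFN-gamma, 7.9 and 8.0 CPM in DCC control, 29.8 and 23.0 CPM in TUBO, and 69.3 and 66.8 CPM in early lesion. Both were low in all 4 DCC libraries. Fzd6 was lower in DCC control than in TUBO (-3.40 ± 0.33, adjusted p = 2.67e-05) and early lesion (-3.77 ± 0.33, adjusted p = 1.56e-05). Fzd3 was lower in DCC control than in TUBO (-1.73 ± 0.28, adjusted p = 6.32e-04) and early lesion (-3.10 ± 0.29, adjusted p = 1.51e-05), and lower in TUBO than in early lesion (-1.37 ± 0.27, adjusted p = 0.00443).

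Fzd9 set early lesion apart, with 2.31 and 2.50 CPM in DCC IFN-gamma, 2.62 and 4.63 CPM in DCC control, 0 and 0.114 CPM in TUBO, and 24.4 and 27.4 CPM in early lesion. TUBO held 3 Fzd9 counts in all and was 472-fold below early lesion with a counting interval of 161 to 2293 (adjusted p = 2.67e-05). DCC control was 7.09-fold below early lesion (-2.82 ± 0.49, adjusted p = 0.00106), and it was 70.7-fold above TUBO with a counting interval of 23.7 to 346 (adjusted p = 9.38e-05). Without TUBO replicate 2, which held the 3 counts, DCC control was at least 35.04-fold above TUBO. The call of Fzd9 against early lesion was lost without both libraries that stood apart (-2.40, adjusted p = 0.0631). Fzd4, the receptor of norrin in blood vessels, had 4.11 and 6.30 CPM in DCC IFN-gamma, 9.68 and 10.7 CPM in DCC control, 4.48 and 3.55 CPM in TUBO, and 0.826 and 0.847 CPM in early lesion. It was higher in DCC control than in early lesion (3.60 ± 0.50, adjusted p = 2.34e-04), higher in TUBO than in early lesion (2.26 ± 0.48, adjusted p = 0.00674) and higher in DCC control than in TUBO (1.34 ± 0.45, adjusted p = 0.0339). The call of Fzd4 between DCC control and TUBO did not hold with DCC IFN-gamma replicate 2 left out (adjusted p = 0.0553) or either library of DCC control (0.101 and 0.172) or TUBO (0.0622 and 0.145). Fzd10 averaged at most 1.17 CPM in any group and was not called by edgeR over the 4 groups. DESeq2 called it higher in DCC control than in TUBO (adjusted p = 0.0425), as did edgeR on those groups alone (0.0137), on 11 and 42 counts in DCC control.

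Lrp5 and Lrp6, the co-receptors without which Wnt ligands do not reach beta-catenin, were lower in DCC control than in TUBO and early lesion. Lrp6 had 114 and 121 CPM in DCC IFN-gamma, 143 and 145 CPM in DCC control, 387 and 339.5 CPM in TUBO, and 405 and 363 CPM in early lesion. Lrp5 had 59.8 and 117 CPM in DCC IFN-gamma, 105 and 129.8 CPM in DCC control, 394 and 398 CPM in TUBO, and 327 and 295 CPM in early lesion. For both genes the 4 DCC libraries lay below the other 4. DCC control was 2.52-fold below TUBO for Lrp6 (-1.33 ± 0.15, adjusted p = 4.97e-05) and 3.37-fold below it for Lrp5 (-1.75 ± 0.28, adjusted p = 0.00113). It was 2.67-fold below early lesion for Lrp6 (-1.41 ± 0.15, adjusted p = 3.49e-05) and 2.65-fold below it for Lrp5 (-1.40 ± 0.28, adjusted p = 0.00383). Neither was called between DCC IFN-gamma and DCC control, with log2 differences of -0.30 ± 0.15 for Lrp6 and -0.41 ± 0.28 for Lrp5. Lrp6 was called lower by DESeq2 (adjusted p = 0.0366) and with upper quartile factors (0.0251). Without DCC IFN-gamma replicate 2, which leaves a single treated library, the Lrp5 difference was -0.93.

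The R-spondin receptors Lgr6 and Lgr4 had opposite patterns. Lgr6 (GRCm38 chr1:134983301-135105276, minus strand) had 108 and 121 CPM in DCC IFN-gamma, 29.5 and 26.2 CPM in DCC control, 0 and 0.496 CPM in TUBO, and 3.43 and 4.15 CPM in early lesion. Lgr4, the widely expressed member, had 14.9 and 17.98 CPM in DCC IFN-gamma, 20.3 and 24.7 CPM in DCC control, 82.0 and 67.8 CPM in TUBO, and 72.0 and 75.2 CPM in early lesion. The groups of Lgr6 did not overlap, and the 4 DCC libraries of Lgr4 lay below the other 4. Per length, Lgr6 averaged 16.7 RPKM against 2.80 RPKM for Lgr4 in DCC IFN-gamma, while the values in DCC control were close, 4.06 and 3.82 RPKM.

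Lgr6 rose 4.12-fold in DCC IFN-gamma (2.04 ± 0.44, adjusted p = 0.0166), but the call was lost without either DCC IFN-gamma library (adjusted p = 0.0815 and 0.0901) or either DCC control library (0.123 and 0.194), with log2 differences between 1.97 and 2.13. It was higher in DCC control than in TUBO (6.84 ± 0.65, adjusted p = 1.41e-04) and early lesion (2.88 ± 0.48, adjusted p = 0.00243), and lower in TUBO than in early lesion (-3.96 ± 0.69, adjusted p = 0.0059). Without TUBO replicate 2, which held all 13 of its TUBO counts, Lgr6 was at least 269-fold higher in DCC control than in TUBO and at least 36.6-fold lower in TUBO than in early lesion. Lgr4 was lower in DCC control than in TUBO (-1.73 ± 0.19, adjusted p = 3.80e-05) and early lesion (-1.71 ± 0.19, adjusted p = 4.58e-05) and was not called for interferon-gamma (-0.45 ± 0.19, adjusted p = 0.113; 0.0276 with upper quartile factors). Lgr5, a marker of intestinal stem cells, averaged at most 1.28 CPM in any group and was not called by edgeR over the 4 groups. In DESeq2 it was called higher in DCC control than in TUBO (adjusted p = 0.0448), as in edgeR on those groups alone (0.0263). Lgr5 had 35 and 11 counts in DCC control, and 0 and 32 counts in early lesion. Whether these share the source of the olfactory receptor counts was not tested.

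Different secreted antagonists led in the DCC groups and in the other 2. Sfrp1, which binds Wnt ligands and Frizzled receptors (GRCm38 chr8:23411502-23449632, plus strand), held 99.9% and 99.3% of the summed RPKM of the 11 antagonists in TUBO and 99.9% and 99.1% in early lesion, but 5.93% and 2.98% in DCC IFN-gamma and 0.258% and 0.15% in DCC control. In the DCC groups Wif1, which binds Wnt ligands in the extracellular space, and Sfrp4, known in bone, held most of the sum. Wif1 took 44.0% and 15.5% and Sfrp4 40.1% and 72.7% in DCC IFN-gamma, and in DCC control Wif1 took 75.9% and 71.6% and Sfrp4 16.6% and 22.6%.

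Wif1 (GRCm38 chr10:121033960-121100650, plus strand; promoter shown above) had 6.34 and 5.88 CPM in DCC IFN-gamma, 89.4 and 84.0 CPM in DCC control, 0.138 and 0.381 CPM in TUBO, and 0 and 0.223 CPM in early lesion. It fell 14.2-fold in DCC IFN-gamma (-3.82 ± 0.41, adjusted p = 3.07e-04), and the call held under every alternative tried, with log2 differences between -4.02 and -3.73. Both DCC groups lay above TUBO and early lesion, and DCC control was higher than TUBO by 8.38 ± 0.55 (adjusted p = 4.19e-06) and than early lesion by 9.77 ± 0.62 (adjusted p = 3.70e-06). Without early lesion replicate 2, which held all 5 early lesion counts of Wif1, DCC control was at least 909-fold above early lesion. Wif1 was called higher in TUBO than in early lesion without early lesion replicate 2 (at least 2.72-fold, adjusted p = 0.0283), where TUBO held 4 and 10 counts and early lesion replicate 1 had 0.

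Sfrp1 had 1.54 and 2.04 CPM in DCC IFN-gamma, 0.548 and 0.317 CPM in DCC control, 603 and 540.2 CPM in TUBO, and 789 and 693 CPM in early lesion. It rose 4.29-fold in DCC IFN-gamma (2.10 ± 0.32, adjusted p = 0.00131) at a level of 42 and 49 counts in DCC IFN-gamma and 9 and 8 counts in DCC control, and that call was lost when those 2 groups were fitted alone (adjusted p = 0.114). DCC control was 1371-fold below TUBO (-10.42 ± 0.29, adjusted p = 1.39e-08) and 1777-fold below early lesion (-10.80 ± 0.30, adjusted p = 1.01e-08). Between TUBO and early lesion the log2 difference of Sfrp1 was -0.37 ± 0.18 (adjusted p = 0.158), called without DCC IFN-gamma replicate 2 (-0.44, adjusted p = 0.038).

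Sfrp4 was unlike between the treated replicates, with 9.97 and 47.6 CPM in DCC IFN-gamma, 33.6 and 45.6 CPM in DCC control, 0.103 and 0 CPM in TUBO, and 0 and 0.0446 CPM in early lesion. The DCC groups overlapped each other and lay above the other 4 libraries. TUBO held 3 counts of Sfrp4 and early lesion 1, which puts the ratio of DCC control to TUBO at 752 with a counting interval of 257 to 3652 (adjusted p = 0.00123) and to early lesion at 2203 with an interval of 395 to 87067 (adjusted p = 0.0012). Between DCC IFN-gamma and DCC control its log2 difference was -0.46 ± 0.71 (adjusted p = 0.664), and it was -1.95 and called without DCC IFN-gamma replicate 2 (adjusted p = 0.0059) and 0.27 without replicate 1.

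Dkk3, an atypical Dickkopf protein, had 0.696 and 2.92 CPM in DCC IFN-gamma, 2.86 and 4.20 CPM in DCC control, 0 CPM in both TUBO libraries, and 0 and 0.58 CPM in early lesion. It was at least 32.4-fold higher in DCC control than in TUBO (adjusted p = 0.0133), a call lost without TUBO replicate 2 (adjusted p = 0.0572). Without early lesion replicate 2 it was also called higher in DCC control than in early lesion (at least 37.0-fold, adjusted p = 0.0128), as was Dkk2, a Lrp5 and Lrp6 antagonist (adjusted p = 0.0361). DESeq2 also called Dkk2 higher in DCC control than in TUBO (0.00276) and early lesion (0.00502). Dkk2 averaged 1.03 CPM in DCC IFN-gamma, 2.98 CPM in DCC control, 0.195 CPM in TUBO and 0.232 CPM in early lesion. Dkk1, Frzb and Sfrp2 averaged at most 0.822 CPM in any group and were not called by edgeR over the 4 groups. Sfrp2 was called higher in DCC control than in TUBO with those groups fitted alone (0.0159), on 14 and 20 counts in DCC control.

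Feedback inhibitors, which Wnt signals themselves induce in many tissues, split into a pair of sets of 3 in DCC control against TUBO and early lesion. Axin2, a scaffold of the beta-catenin destruction complex and a common reporter of the pathway, had 3.59 and 6.42 CPM in DCC IFN-gamma, 10.6 and 14.0 CPM in DCC control, 0 CPM in both TUBO libraries, and 0.191 and 1.07 CPM in early lesion. Nkd1, which binds Dishevelled, had 1.36 and 1.67 CPM in DCC IFN-gamma, 10.4 and 10.1 CPM in DCC control, 0 and 0.0381 CPM in TUBO, and 0 and 0.223 CPM in early lesion. Notum, an enzyme that removes the lipid from Wnt ligands, had 6.19 and 21.1 CPM in DCC IFN-gamma, 7.18 and 6.02 CPM in DCC control, 0 and 0.305 CPM in TUBO, and 0 and 0.357 CPM in early lesion. All 3 were higher in the 4 DCC libraries than in the other 4.

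Axin2 was at least 113-fold higher in DCC control than in TUBO (adjusted p = 1.57e-04) and 19.9-fold higher than in early lesion (4.32 ± 0.82, adjusted p = 0.00238). Against early lesion, Axin2 had log2 differences between 3.52 and 6.16 over the alternatives, and it had 6 and 24 counts in the early lesion libraries. It was at least 5.79-fold lower in TUBO than in early lesion (adjusted p = 0.011), a call lost without TUBO replicate 2 (adjusted p = 0.0571) or early lesion replicate 2 (0.0525). Nkd1 had 1 count in TUBO, and the ratio of DCC control to TUBO was 564 with a counting interval of 101 to 22342 (adjusted p = 5.50e-04). It was higher in DCC control than in early lesion by 6.60 ± 1.19 (adjusted p = 0.00134), or at least 108-fold without early lesion replicate 2, which held its early lesion counts. Notum was higher in DCC control than in TUBO (5.43 ± 1.45, adjusted p = 0.0201) and early lesion (5.32 ± 1.45, adjusted p = 0.0236). The Notum calls were lost without either DCC control library (adjusted p = 0.0778 and 0.107 against TUBO, 0.0883 and 0.128 against early lesion), without TUBO replicate 1 (0.074, against TUBO) and without DCC IFN-gamma replicate 1 or early lesion replicate 1 (0.0555 and 0.0546, against early lesion). Without TUBO replicate 2 or early lesion replicate 2, which held its few counts there, Notum was at least 63.8-fold higher in DCC control than in TUBO and at least 69.2-fold higher than in early lesion.

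Axin2, Nkd1 and Notum were not called between DCC IFN-gamma and DCC control. Their log2 differences were -1.30 ± 0.71 for Axin2 (adjusted p = 0.226), -2.76 ± 0.94 for Nkd1 (adjusted p = 0.0629) and 1.05 ± 1.10 for Notum (adjusted p = 0.514). The treated and untreated libraries did not overlap for Axin2 and Nkd1. Nkd1 was called lower in DCC IFN-gamma without either TUBO library (adjusted p = 0.0371 and 0.0438) or either early lesion library (0.0104 and 0.0106), and both Axin2 (0.0367) and Nkd1 (0.00235) when the 2 DCC groups were fitted alone. DESeq2 also called Nkd1 lower (0.0128).

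Nkd2, Rnf43 and Znrf3 were lower in DCC control than in TUBO and early lesion. Nkd2, the paralogue of Nkd1, had 10.8 and 11.4 CPM in DCC IFN-gamma, 5.24 and 7.29 CPM in DCC control, 241 and 285 CPM in TUBO, and 143 and 127 CPM in early lesion. Rnf43 had 0.22 and 0 CPM in DCC IFN-gamma, 1.34 and 1.505 CPM in DCC control, 33.0 and 36.7 CPM in TUBO, and 46.7 and 43.2 CPM in early lesion. Znrf3 had 41.6 and 31.0 CPM in DCC IFN-gamma, 17.3 and 16.8 CPM in DCC control, 32.1 and 42.5 CPM in TUBO, and 39.7 and 33.7 CPM in early lesion. The treated libraries lay above DCC control for Nkd2 and Znrf3 and below it for Rnf43, and Znrf3 in DCC IFN-gamma overlapped TUBO and early lesion.

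In DCC IFN-gamma, Znrf3 rose 2.13-fold (1.09 ± 0.22, adjusted p = 0.00579), Nkd2 rose 1.76-fold (0.81 ± 0.19, adjusted p = 0.0133), and Rnf43, which acts on Frizzled together with Znrf3, fell 11.8-fold (-3.57 ± 0.60, adjusted p = 0.00213). The Rnf43 fall rests on 22 and 38 counts in DCC control, whose libraries also had counts on 47.7% and 11.9% of the olfactory and vomeronasal receptor genes. Whether the low Rnf43 counts share that source was not tested. Without DCC control replicate 1 the Nkd2 call was lost (0.61, adjusted p = 0.116), and without DCC IFN-gamma replicate 1, which held all 6 of the treated Rnf43 counts, Rnf43 was at least 11.4-fold lower in DCC IFN-gamma. When those 2 groups were fitted alone, neither Nkd2 (adjusted p = 0.0985) nor Rnf43 (0.0742) was called, and without both libraries that stood apart Znrf3 was not called (0.0764). Between DCC control and TUBO the log2 differences were -5.38 ± 0.21 for Nkd2 (adjusted p = 3.66e-08), -4.60 ± 0.39 for Rnf43 (adjusted p = 6.87e-06) and -1.13 ± 0.22 for Znrf3 (adjusted p = 0.00195). Between DCC control and early lesion they were -4.42 ± 0.21 for Nkd2 (adjusted p = 1.14e-07), -4.97 ± 0.39 for Rnf43 (adjusted p = 4.70e-06) and -1.10 ± 0.22 for Znrf3 (adjusted p = 0.00234). Nkd2 was 1.95-fold higher in TUBO than in early lesion (0.96 ± 0.17, adjusted p = 0.00284).

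Lef1 and Tcf7, nuclear partners of beta-catenin, were not called between DCC IFN-gamma and DCC control. Lef1 had 0.806 and 0.167 CPM in DCC IFN-gamma, 2.19 and 0.95 CPM in DCC control, 18.3 and 17.2 CPM in TUBO, and 3.97 and 4.28 CPM in early lesion. Tcf7 had 30.6 and 30.8 CPM in DCC IFN-gamma, 17.2 and 32.0 CPM in DCC control, 29.7 and 33.9 CPM in TUBO, and 9.22 and 10.8 CPM in early lesion. TUBO was the highest group for Lef1, and early lesion the lowest for Tcf7, whose DCC control replicates were unlike each other.

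Lef1 was lower in DCC control than in TUBO (-3.52 ± 0.64, adjusted p = 0.00135), and higher in TUBO than in early lesion (2.10 ± 0.59, adjusted p = 0.0266), a call lost without any 1 TUBO or early lesion library (adjusted p between 0.0953 and 0.115). Tcf7 was higher than in early lesion both in DCC control (1.30 ± 0.28, adjusted p = 0.00375; 0.78 without DCC control replicate 2) and in TUBO (1.67 ± 0.28, adjusted p = 0.00182). Between DCC control and TUBO, Tcf7 was called lower without DCC control replicate 2 (-0.89, adjusted p = 0.0248), and its difference was 0.01 without replicate 1. Lef1 was called in further comparisons without single DCC IFN-gamma libraries: lower in DCC IFN-gamma than in DCC control without replicate 1 (-3.17, adjusted p = 0.00851), and lower in DCC control than in early lesion without replicate 1 or 2 (adjusted p = 0.0218 and 0.0132).

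The plot of replicate 2 against replicate 1 puts these replicate differences beside those of all members. Members at 0 in both libraries of a group, 13 in DCC IFN-gamma, 4 in DCC control and 21 in TUBO, lie on the line of equal values. Some of the other genes under 1 CPM lie far from the line in every group. Wnt4 in DCC control (34.3 and 10.4 CPM) and in early lesion (4.89 and 15.3 CPM) stands off the line, higher each time in the library that stood apart.

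**Figure D5:**
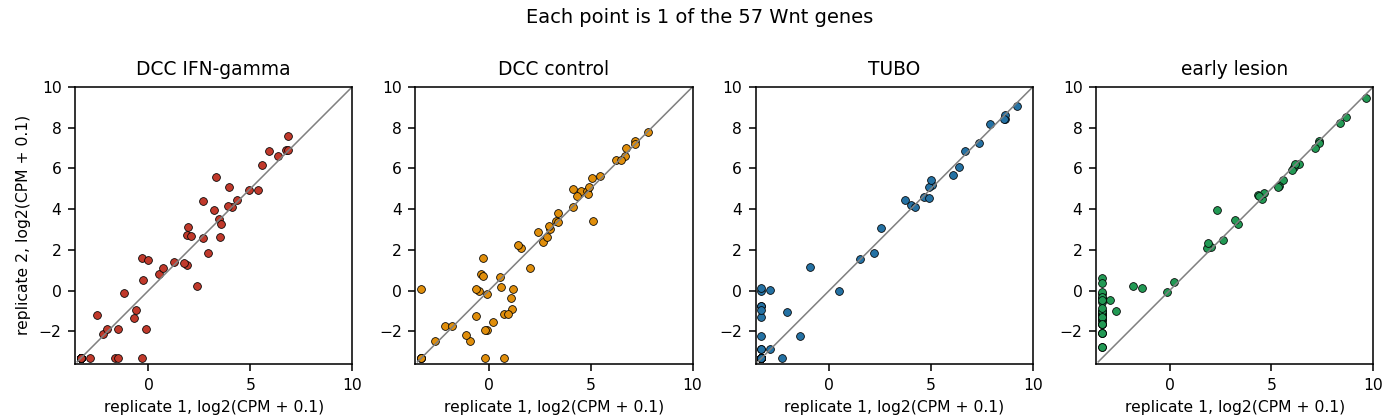
CPM of each Wnt gene in replicate 2 against replicate 1, as log2(CPM + 0.1), in 1 panel a group (DCC IFN-gamma, DCC control, TUBO and early lesion), with 1 point for each member and the line of equal values drawn. In early lesion 27 members with no count in replicate 1 line up at the left edge, above the lowest level in replicate 2, and in DCC IFN-gamma Sfrp4 (9.97 and 47.6 CPM) lies above the line.

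Beyond these members, 72 other genes of the pathway in 7 lists were counted, 68 of them tested. In DCC IFN-gamma 6 were higher and 14 lower than in DCC control (12.6% and 8.83% of all genes). In DCC control 20 were higher and 23 lower than in TUBO (22.1% and 19.9%), and 21 higher and 14 lower than in early lesion (19.1% and 18.7%). In TUBO 13 were higher and 11 lower than in early lesion (11.4% and 12.7%). The same shares of all genes stand beside the counts per list below.

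Both genes of Wnt secretion fell in DCC IFN-gamma and were higher in DCC control than in TUBO and early lesion. Porcn, the enzyme that attaches the lipid to Wnt ligands, averaged 5.99 ± 3.39 CPM in DCC IFN-gamma and 28.5 ± 0.52 CPM in DCC control (SD, n = 2; -2.25 ± 0.38, adjusted p = 0.0023), against 9.67 ± 1.11 CPM in TUBO and 4.56 ± 0.611 CPM in early lesion. Wls, the carrier of the lipid-bearing ligand to the surface, averaged 89.3 ± 21.8 CPM in DCC IFN-gamma and 176 ± 9.04 CPM in DCC control (-0.98 ± 0.18, adjusted p = 0.00369), against 79.3 ± 7.07 CPM in TUBO and 119 ± 4.60 CPM in early lesion. DCC control was above TUBO by 1.56 ± 0.37 for Porcn (adjusted p = 0.00658) and 1.15 ± 0.18 for Wls (adjusted p = 5.33e-04), and above early lesion by 2.64 ± 0.39 for Porcn (adjusted p = 3.62e-04) and 0.56 ± 0.18 for Wls (adjusted p = 0.031).

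Of 7 co-receptors outside the Frizzled and Lrp families, 1 rose in DCC IFN-gamma (Kremen1, a Dkk receptor, 0.80 ± 0.24, adjusted p = 0.0398) and 1 fell (Gpc4, a glypican, -1.75 ± 0.21, adjusted p = 2.46e-04). Ror2, a receptor of Wnt5a, was at least 88.8-fold higher in DCC control, at 9.68 ± 0.861 CPM, than in TUBO, where it had no count (adjusted p = 1.41e-05), and exceeded early lesion, at 0.945 ± 0.303 CPM, by 3.36 ± 0.51 (adjusted p = 6.10e-04). Of the other secreted inhibitors, 4 of 7 were tested and 1 fell in DCC IFN-gamma. It was Igfbp4, an IGF carrier that also binds Lrp6, at 100.4 ± 24.8 CPM in DCC IFN-gamma and 427 ± 1.49 CPM in DCC control (-2.09 ± 0.23, adjusted p = 2.22e-04). Apcdd1, an inhibitor at the cell surface, averaged 12.4 ± 1.98 CPM in DCC control, against 0.0191 ± 0.027 CPM in TUBO and 0.112 ± 0.158 CPM in early lesion.

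Inside the cell, 2 of 18 genes of the cytoplasmic beta-catenin pathway fell in DCC IFN-gamma, Gsk3b, a kinase that marks beta-catenin for destruction (-0.73 ± 0.16, adjusted p = 0.0103), and Ctnnb1, beta-catenin itself (-0.67 ± 0.18, adjusted p = 0.0223). Ctnnb1 averaged 301 ± 12.6 CPM in DCC IFN-gamma, 478 ± 98.9 CPM in DCC control and 951 ± 0.295 CPM in TUBO, and DCC control was below TUBO (-0.99 ± 0.18, adjusted p = 0.00115). Of 12 nuclear genes 4 fell and 1 rose in DCC IFN-gamma, with the largest decreases in Tle2, a corepressor (-2.04 ± 0.43, adjusted p = 0.0135), and Pygo1, a coactivator (-1.33 ± 0.38, adjusted p = 0.0344). Of 11 core genes of planar cell polarity 2 fell in DCC IFN-gamma, the cadherins Celsr1 and Celsr2, which averaged 0.0758 and 0.186 CPM in DCC IFN-gamma and 2.63 and 2.01 CPM in DCC control. Whether such low values share the source of the olfactory receptor counts in DCC control was not tested. Daam2, a formin of that list, averaged 51.3 ± 6.43 CPM in DCC control, was at 0 in TUBO and averaged 0.312 ± 0.442 CPM in early lesion.

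Widely used Wnt target genes went in both directions in DCC IFN-gamma. Of 14 tested, 4 rose (Ccnd1, Cd44, Fosl1 and Id2) and 2 fell (Tnfrsf19 and Wisp1). Fosl1, an AP-1 factor, averaged 1193 ± 254 CPM in DCC IFN-gamma and 89.8 ± 5.25 CPM in DCC control (3.73 ± 0.26, adjusted p = 1.41e-05), and Wisp1, also called Ccn4, a matricellular protein, averaged 10.3 ± 1.21 CPM in DCC IFN-gamma and 76.8 ± 5.31 CPM in DCC control (-2.90 ± 0.51, adjusted p = 0.0067). In DCC control 5 of the 14 were higher and 4 lower than in TUBO, and 6 higher and 2 lower than in early lesion. Wisp1 averaged 0.0191 ± 0.027 CPM in TUBO and 0.223 ± 0.315 CPM in early lesion. Wisp2, also called Ccn5, averaged 23.0 ± 3.02 CPM in DCC control, was at 0 in TUBO and averaged 0.0446 ± 0.0631 CPM in early lesion. Twist1, a mesenchymal transcription factor, was higher in TUBO, at 69.1 ± 6.04 CPM, than in early lesion, at 5.15 ± 0.355 CPM (3.75 ± 0.25, adjusted p = 6.93e-06).

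The exons of 10 members overlap an annotated transcript of the opposite strand (Axin2, Fzd5, Fzd6, Lef1, Notum, Rspo3, Sfrp2, Wnt11, Wnt5a and Wnt7b), over 152 to 1233 bases, and since the strand setting of the counting was not given, reads of the 2 strands cannot be told apart there.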

How the data were processed

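Per the labels' protocols, RNA came from a column kit and libraries from a Nugen Ovation kit for mouse RNA. The counts are raw, in 1 table by gene symbol that the authors deposited for the 8 libraries. TopHat, HTSeq 0.6.1 and mm10 come from the submitters' processing notes, and the annotation and strand setting stand as not given in the sources used here. Closing lines of the table, 5 in number, hold reads assigned to no gene, 35.2% to 63.7% of each library, and stayed out of library sizes and tests.

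From the deposited counts, CPM was computed on TMM-normalized library sizes, and RPKM on the union of each gene's exons in GENCODE M21 (GRCm38), which may not be the annotation used for counting. Groups were compared by the robust quasi-likelihood test of edgeR 4.0.16 in R 4.3.3, in 1 model of 4 group means with 4 residual degrees of freedom. The filter filterByExpr (minimum count 10) left 17069 genes to test, with p adjusted over all of them by Benjamini-Hochberg. It was tested on simulated data. Standard errors are the log2 fold change over the square root of F. A fold against a group at 0, also where leaving out a library leaves it at 0, is a bound on a floor of 3 counts per library and on the CPM of the full fit, and ratios on 1 to 3 counts carry exact counting intervals, which cover counting error only.

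The members and lists were chosen with earlier results of these data known. Values per library were given for members averaging at least 5 CPM in a group or called, and for pathway lists at most the 2 called genes of largest change per comparison. Wisp1 and Wisp2 were matched to Ccn4 and Ccn5 by RefSeq synonyms. Alternatives were RLE and upper quartile factors, other filters on low counts, a replicate block, DESeq2 1.42.0, fitting only the groups compared, and leaving out libraries. A group that loses a library is left with a single one, so the spread in such a fit comes from the other groups only. Same-numbered replicates were checked for pairing. Promoter windows are RefSeq's on GRCm38.p6.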

Additional observations from a re-analysis of the deposited data

How the results depend on the processing

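Of 1813 recomputed log2 fold changes of single members, 1649 kept their direction and their side of the threshold, 71 passed it newly, 90 no longer passed and 3 changed sign. The changes of sign were in differences that had not been called: Sfrp4 between DCC IFN-gamma and DCC control, which ranged from -1.95 to 0.27 with 1 library left out, and Tcf7 between DCC control and TUBO, which ranged from -0.89 to 0.0094 with 1 library left out and was 0.0114 without both libraries that had the most reads outside genes. The cause was not tested.

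Members higher in DCC IFN-gamma than in DCC control numbered 5, but 3 when only those groups were fitted (13.9% of all genes), 1 without both of these libraries and 2 to 5 with 1 library left out (6.95% to 13.5%). Members lower there numbered 8, and 4 without both libraries. Members higher in DCC control than in TUBO numbered 16, and 10 to 17 with 1 library left out (15.1% to 22.8% of all genes). Members higher in TUBO than in early lesion numbered 6, and 3 without both libraries. Of the called members, 3 of 13, 22 of 29, 18 of 25 and 9 of 14 kept their call under every alternative, in the order interferon-gamma, DCC control against TUBO and against early lesion, and TUBO against early lesion. Leaving out both libraries lowers the number of libraries and of genes tested.

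Deviations of same-numbered replicates correlated between -0.432 and 0.0957. The lowest value was for DCC control with early lesion, where the libraries that stood apart carry opposite numbers. With 2 libraries per group this check cannot tell whether replicates were paired. With the replicate block, 5 members were higher and 6 lower in DCC IFN-gamma than in DCC control (12.1% and 8.32% of all genes), 15 and 13 in DCC control than in TUBO (20.6% and 19.5%), 12 and 13 in DCC control than in early lesion (18.5% and 18.5%), and 6 and 8 in TUBO than in early lesion (11.2% and 12.3%). The calls lost with the block were Fzd1 and Wnt4 for interferon-gamma (adjusted p = 0.063 and 0.0669) and Fzd4 between DCC control and TUBO (0.0592). With the early lesion numbers crossed, an alternative chosen after seeing the data, 11 were higher and 13 lower in DCC control than in early lesion (18.4% and 18.3%). With 2 libraries per group and a common biological coefficient of variation of 0.416, members under 5 CPM were measured with low precision. In simulated counts few genes were changed, and genes of low counts were not among them. There 7% of 2-fold and 65% of 4-fold changes were called for DCC IFN-gamma against DCC control. In the other comparisons 19.2% to 33% and 74% to 78% were called. Far more genes were called in the real data, so these rates are not those of the tests reported here. At any level, a difference not called is not shown to be absent.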
